A study of Homo sapiens with 12 samples.

Results

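The genes described here encode the enzymes that make cholesterol and fatty acids, together with the proteins that sense sterols and control those enzymes. They were taken from a list of 29 genes that names the pathway's members by function, chosen with earlier results of these data known. Of these, 27 were measured by a probe set that names that gene alone, among 18404 genes in all. FDFT1, squalene synthase, had no such probe set, and HSD17B7, a sterol ketoreductase, was covered only by a probe set that names several genes, so neither is described further. Expression was measured on 12 arrays in HepG2 spheroids, that is, aggregates of a cell line from a human liver carcinoma, grown in stirred flasks for 10 days.

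The arrays form 3 groups of 4: HIF-2α knockdown, HIF-1α knockdown and wild type. The design text gives 4 different spheroid experiments for each genotype. HIF1A encodes HIF-1α and EPAS1 encodes HIF-2α, the α subunits that oxygen destabilises and that drive transcription when oxygen is low. The letters sh in the sample descriptions mark the knockdown cells, while the sources used here do not give the construct, the number of clones or whether wild type cells carried a control construct. No group was grown under a stated change of oxygen, so the comparisons are between genotypes in spheroids of one age. The amplification kit was used on 250 microdissected cells, per the labels' protocols.

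Cholesterol is built from acetyl-CoA, first through mevalonate and isoprenoid units to squalene, then through a series of ring-modifying steps, several of which consume molecular oxygen. Fatty acids are built from the same acetyl-CoA pool by carboxylation and repeated condensation. Most of these genes are transcribed under the SREBP factors (encoded by SREBF1 and SREBF2), which are held in the endoplasmic reticulum by the INSIG proteins when sterols are plentiful and escorted by SCAP to the Golgi, where they are cleaved, when sterols are scarce. The liver is a main site of both pathways, and in mouse liver Insig2 has been described as a gene raised through HIF.

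Both targeted genes were lower in the arrays labelled for them. HIF1A averaged 9.46 ± 0.18 on the log2 scale in HIF-1α knockdown and 10.70 ± 0.08 in wild type (SD, n = 4 each), a log2 difference of -1.23 (SE 0.15, limma adjusted p = 0.00241), called in 22 of 24 alternative settings. The call was lost without the 3 arrays of raised floor, where the log2 difference was -1.24 (adjusted p = 0.103), and with the ribosomal protein mean as a covariate, where it was -1.05 (adjusted p = 0.0792). EPAS1 averaged 9.89 ± 0.16 in HIF-2α knockdown and 11.01 ± 0.18 in wild type (SD, n = 4 each), a log2 difference of -1.12 (SE 0.09, limma adjusted p = 0.000206). Neither pair of groups overlapped (exact two-sided permutation p = 0.0286, the smallest that 4 against 4 arrays can give). Of the 10 hepatocyte markers listed, 8 were measured, and their mean per array was 12.02 to 12.64 in HIF-2α knockdown, 11.66 to 11.92 in HIF-1α knockdown and 12.23 to 12.65 in wild type. All 8 were lower in HIF-1α knockdown than in wild type, with a median log2 difference of -0.51. Of the 8, 6 did not overlap there, where 7.84% of all genes did not overlap in either direction. In HIF-2α knockdown 7 were below wild type and 1 above, with a median of -0.12. Between HIF-2α and HIF-1α knockdown 7 were higher and 1 lower, with a median of 0.40. FGB, a fibrinogen chain gene and the 1 above wild type in HIF-2α knockdown, was called in each comparison. Its means were 10.36 in HIF-2α knockdown, 7.97 in HIF-1α knockdown and 9.72 in wild type. Its log2 difference was -1.75 between HIF-1α knockdown and wild type and 2.38 between the knockdowns, each called in 24 of 24 alternative settings. Between HIF-2α knockdown and wild type it was 0.63, called in 18 of 24. Of the markers of other cell types, all 6 fibroblast, 6 leukocyte, 5 endothelial and 4 adipocyte genes listed were measured. PTPRC, the pan-leukocyte surface marker, and the fibroblast matrix genes DCN and LUM lay near the floor of the arrays, at means of 6.52, 6.52 and 6.43 over the 12 arrays. The other 4 fibroblast genes had means of 7.11 to 7.65, and the myeloid markers LYZ and CD68 had 13.19 and 10.02. The 6 fibroblast genes averaged 6.93 to 7.04 per array in HIF-2α knockdown, 7.05 to 7.10 in HIF-1α knockdown and 7.04 to 7.10 in wild type. Among them PDGFRB, a growth factor receptor, fell in HIF-2α knockdown by a log2 difference of -0.40 from wild type (SE 0.06, limma adjusted p = 0.0109) and -0.35 from HIF-1α knockdown (SE 0.06, limma adjusted p = 0.0105). The 6 leukocyte genes averaged 8.27 to 8.45 per array in HIF-2α knockdown, 8.39 to 8.52 in HIF-1α knockdown and 8.37 to 8.53 in wild type. Of these CD14, a myeloid receptor, was called lower in HIF-2α than in HIF-1α knockdown (log2 difference -0.39, SE 0.07, limma adjusted p = 0.00899). No endothelial or adipocyte gene was called. A raised floor marked replicate 4 of HIF-2α knockdown and replicates 1 and 2 of wild type: their 0.1 percentile lay at 6.35, 6.34 and 6.33, while the other 9 arrays had 6.11 to 6.23. Ribosomal protein genes, a highly expressed group (36 of 44 listed were measured), averaged 11.997 to 12.54 per array in HIF-2α knockdown, 11.86 to 12.19 in HIF-1α knockdown and 12.16 to 12.71 in wild type, and the part of such scale differences in the results that follow was not tested except where stated. In HIF-1α knockdown 35 of the 36 were below wild type, with a median log2 difference of -0.45. Of these, 26 had an unadjusted limma p below 0.05, against 2.98% of all genes lower. In HIF-2α knockdown 30 were below wild type and 6 above, with a median of -0.12. Between HIF-2α and HIF-1α knockdown 35 were higher and 1 lower, with a median of 0.35. RPL11 was the only ribosomal protein gene called. It was lower in HIF-1α knockdown than in wild type (log2 difference -0.78, called in 13 of 24 alternative settings). In HIF-2α knockdown it was higher than in HIF-1α knockdown (log2 difference 0.76, called in 16 of 24).

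None of the 27 sterol and fatty acid genes was called changed in any of the 3 comparisons at a limma adjusted p below 0.05. Between HIF-1α knockdown and wild type, 0.962% of all genes were called in either direction. The share was 0.788% between HIF-2α knockdown and wild type and 2.77% between HIF-2α and HIF-1α knockdown. At such low rates 0 of 27 does not set these genes apart from the table as a whole. At an unadjusted p below 0.05, 3 members were higher in HIF-1α knockdown than in wild type (IDI1, ACSS2 and SC5D) and none lower, against 10.3% of all genes higher and 2.98% lower. In HIF-2α knockdown SC5D and MSMO1 were above wild type and INSIG2 below it by the same measure, against 8.16% of all genes higher and 3.85% lower. Between HIF-2α and HIF-1α knockdown MSMO1 and ACACB were higher and ACSS2 lower, against 5.19% of all genes higher and 8.39% lower. The 2 comparisons with wild type share its 4 arrays, and each pair of comparisons shares a group. In bulk RNA, fewer cells carrying a transcript and less of it per cell cannot be told apart.

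The log2 differences of the members were small and pointed both ways. In HIF-1α knockdown against wild type 11 members were positive and 16 negative, with a median of -0.02 and a range of -0.27 to 0.42, where the median of all genes was 0.00 and 52.0% of them were positive. With HIF-2α knockdown set against wild type, 16 were positive and 11 negative, the median 0.05 and the range -0.38 to 0.40, with 44.6% of all genes positive. Set against HIF-1α knockdown, HIF-2α knockdown again had 16 positive and 11 negative members, a median of 0.04 and a range of -0.30 to 0.40, with 44.7% of all genes positive. Each of these medians changed sign under some setting, so no common direction is given. The first was 0.02 without wild type replicate 3, 0.04 without wild type replicate 4 and 0.07 with the ribosomal protein mean as a covariate. The second was -0.03 after quantile normalization and -0.04 without the 3 arrays of raised floor or without wild type replicate 2 alone. The third was -0.01 with the ribosomal covariate.

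**Figure D1:**
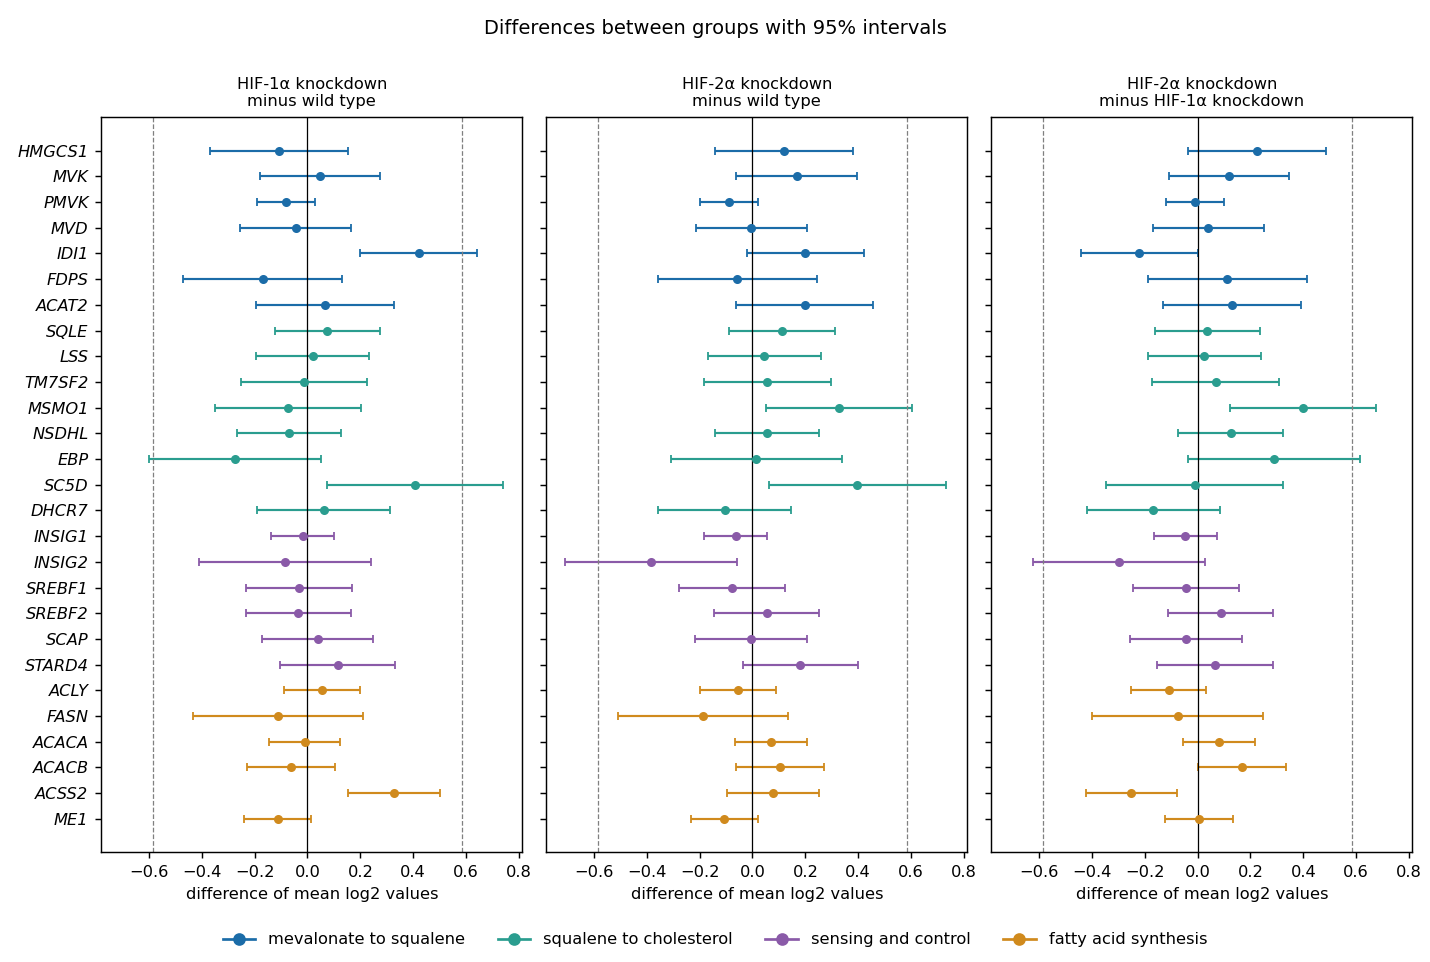
Log2 difference of each of the 27 measured genes (points) with its 95% confidence interval from limma (bars), in the 3 comparisons, 4 arrays per group. The intervals of all members stay within a 2-fold difference in each comparison, and those of 24 of 27 stay within 1.5-fold.

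The width of the intervals sets how large a difference these arrays leave room for. In each comparison the unadjusted 95% interval of every member lay within a 2-fold difference in either direction. It lay within 1.5-fold for 24 of 27 members in each comparison, which is 88.9%, where the share among all genes was 95.9% for HIF-1α knockdown against wild type, 97.0% for HIF-2α knockdown against wild type and 95.8% between the knockdowns. The exceptions were IDI1, SC5D and EBP in the first, SC5D, MSMO1 and INSIG2 in the second and MSMO1, EBP and INSIG2 in the third. Within 1.25-fold lay the intervals of 16, 15 and 13 members in the same order of comparisons. These are 59.3%, 55.6% and 48.1% of members, against 75%, 75.7% and 74.9% of all genes. Smaller differences than that were not resolved for many members.

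The promoters of 3 members are shown for the letters that pathway factors are known to read. IDI1 had the smallest p of the sterol enzymes between HIF-1α knockdown and wild type, and MSMO1 between the knockdowns. SC5D, which had the smallest between HIF-2α knockdown and wild type, narrowly before MSMO1, is not shown. SREBF2 alone held the sterol regulatory element as searched. The sequences are the 250 bases before the annotated start in RefSeq, assembly GRCh38.p14, written 5′ to 3′ on the gene's strand, at chr10:1049120-1049369 (minus strand) for IDI1, chr4:165327419-165327668 (plus strand) for MSMO1 and chr22:41832855-41833104 (plus strand) for SREBF2. Capitals mark the CCAAT box (ATTGG when read on the other strand), the core of the hypoxia response element (ACGTG or CACGT) and the sterol regulatory element (TCACNCCAC). None of the 3 windows shown holds the hypoxia response element core, while SC5D, not shown, does.
IDI1: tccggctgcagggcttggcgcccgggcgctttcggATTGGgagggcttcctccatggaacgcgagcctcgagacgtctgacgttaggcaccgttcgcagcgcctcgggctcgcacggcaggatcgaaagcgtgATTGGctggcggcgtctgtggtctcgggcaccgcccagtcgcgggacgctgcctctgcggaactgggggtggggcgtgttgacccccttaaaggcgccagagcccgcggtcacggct
MSMO1: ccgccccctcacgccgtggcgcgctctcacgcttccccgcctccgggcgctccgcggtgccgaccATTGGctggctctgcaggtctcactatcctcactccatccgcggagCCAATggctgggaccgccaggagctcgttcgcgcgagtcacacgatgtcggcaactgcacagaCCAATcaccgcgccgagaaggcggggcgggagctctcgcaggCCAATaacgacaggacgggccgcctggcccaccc
SREBF2: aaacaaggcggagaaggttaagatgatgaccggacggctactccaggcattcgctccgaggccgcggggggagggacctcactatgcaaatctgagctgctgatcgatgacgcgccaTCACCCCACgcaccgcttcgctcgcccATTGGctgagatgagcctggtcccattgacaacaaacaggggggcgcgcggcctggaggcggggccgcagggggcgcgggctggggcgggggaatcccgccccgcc
A RefSeq window was at hand for 24 of the 27 members, 9 of them with several starts. On either strand CCAAT, read by the factor NF-Y, was in a window of 19 of the 24 (79.2%), against 37.0% of 27305 genes searched alike. These 27305 are all genes with a window, and a gene with several windows has more places to match. Counted per window, CCAAT was in 65.7% of 35 member windows and 32.0% of all 35116. Counted so, ACGTG was in 28.6% and 18.5%. The ACGTG core was in 8 of 24 (33.3%), against 21.7% of genes: ACACA, ACACB, DHCR7, INSIG1, INSIG2, SC5D, SCAP and STARD4. It overlaps the E-box CACGTG, which was in 3 of 24 (12.5%, against 7.7%). TCACNCCAC was in 1 of 24 (4.2%, against 1.1%). These matches describe letters in the windows, and the arrays measured no binding.

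Of the early part of the pathway, from acetyl-CoA to the isoprenoids that form squalene, 7 genes were measured. IDI1, which interconverts the isoprenoid building blocks isopentenyl and dimethylallyl diphosphate, stood apart from wild type most clearly in HIF-1α knockdown. Its log2 values were 11.63, 11.90, 11.96 and 11.87 in HIF-1α knockdown, against 11.36, 11.49, 11.59 and 11.23 in wild type. The lowest HIF-1α knockdown array was above the highest wild type array. The log2 difference was 0.42 (SE 0.10, 95% interval 0.20 to 0.64), or 1.34-fold, with a limma adjusted p of 0.0728, which missed the threshold. An exact two-sided permutation test of this gene alone gave p = 0.0286, the smallest 4 against 4 arrays can give and not adjusted for the number of genes. After quantile normalization the adjusted p of IDI1 was 0.0278, and leaving out HIF-2α knockdown replicate 3 or wild type replicate 3 brought it to 0.0467 or 0.034, within a range of 0.0278 to 0.313 over 24 settings. In HIF-2α knockdown IDI1 had 11.74, 11.76, 11.36 and 11.61, between the other groups in mean and overlapping both. Its log2 difference was 0.20 from wild type (SE 0.10, limma adjusted p = 0.475) and -0.22 from HIF-1α knockdown (SE 0.10, limma adjusted p = 0.369).

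PMVK, phosphomevalonate kinase, also did not overlap, with a much smaller difference. It had 7.53, 7.53, 7.50 and 7.52 in HIF-1α knockdown, against 7.56, 7.70, 7.56 and 7.59 in wild type, so the nearest arrays of the groups almost met. The log2 difference was -0.08 (SE 0.05, limma adjusted p = 0.577). In HIF-2α knockdown its values were 7.55, 7.45, 7.57 and 7.46. With ACSS2, described with the fatty acid genes, IDI1 and PMVK made 3 of 27 members whose arrays did not overlap between HIF-1α knockdown and wild type, a share near the 7.84% of all genes that did not.

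The other 5 early genes overlapped between all groups. HMGCS1, the cytosolic HMG-CoA synthase that SREBP controls, averaged 11.23 ± 0.24 in HIF-2α knockdown, 11.01 ± 0.11 in HIF-1α knockdown and 11.11 ± 0.22 in wild type (SD, n = 4 each). ACAT2, the thiolase that joins acetyl-CoA units, averaged 11.32 ± 0.25, 11.19 ± 0.08 and 11.12 ± 0.22 in HIF-2α knockdown, HIF-1α knockdown and wild type (SD, n = 4 each). The largest difference was 0.22 for HMGCS1, between the knockdowns (SE 0.12, limma adjusted p = 0.479), and 0.20 for ACAT2, between HIF-2α knockdown and wild type (SE 0.12, limma adjusted p = 0.579). MVK, mevalonate kinase, MVD, which decarboxylates mevalonate diphosphate, and FDPS, farnesyl diphosphate synthase, had log2 differences between -0.17 and 0.17 over the 3 comparisons. In MVD 1 array stood above the other 3 in each knockdown, replicate 3 of HIF-2α knockdown at 9.45 and replicate 1 of HIF-1α knockdown at 9.36.

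**Figure D2:**
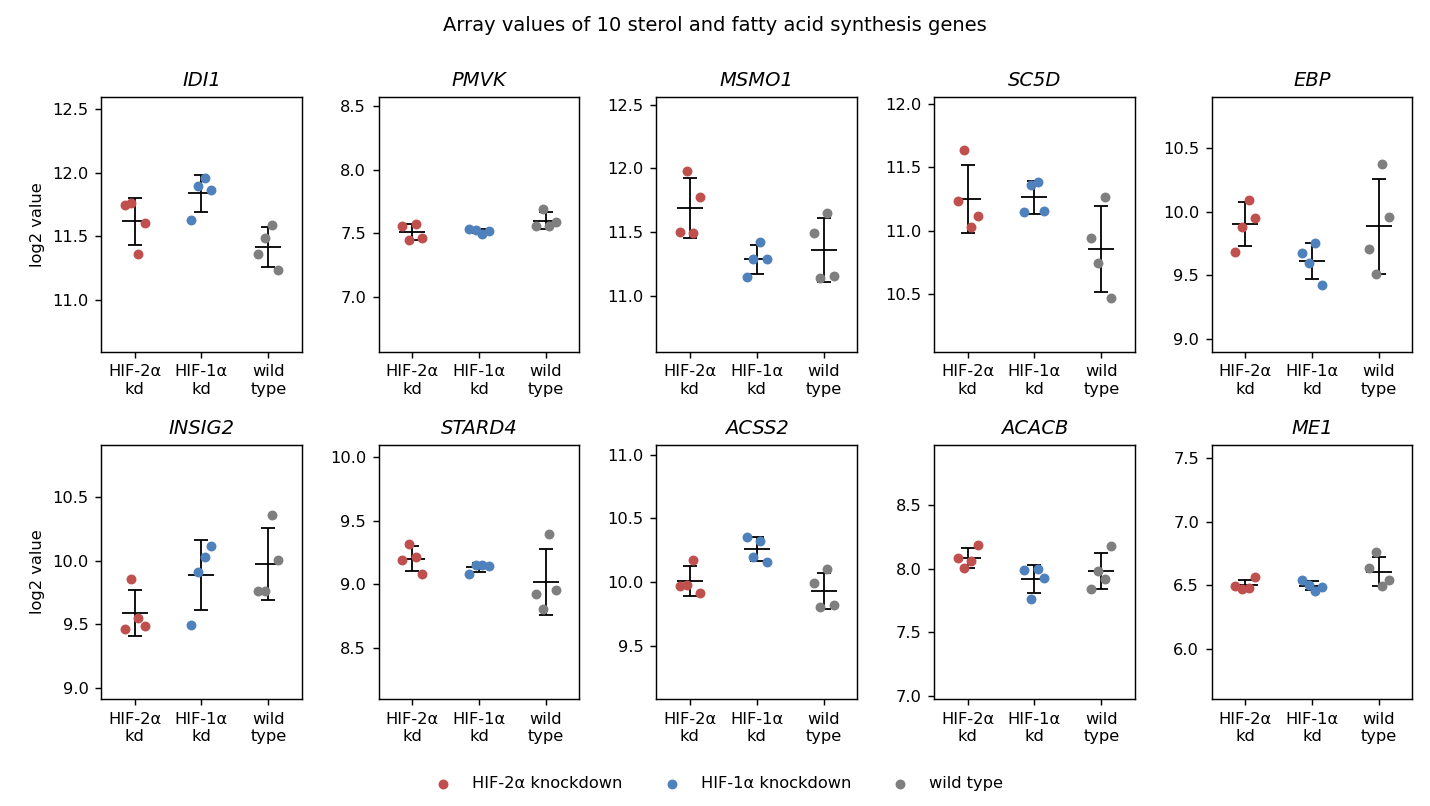
Log2 values of the 10 members with per-array values in the text, 1 panel per gene with its own axis, each point 1 array, horizontal bars for the mean and vertical bars for the SD of 4 arrays. HIF-1α knockdown lies above wild type without overlap for IDI1 and ACSS2, and the wild type points spread widely for SC5D and EBP.

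Of the genes from squalene to cholesterol, 8 were measured. MSMO1, an oxygen-using monooxygenase that takes part in the removal of sterol methyl groups, was highest in HIF-2α knockdown. Its log2 values were 11.50, 11.98, 11.49 and 11.78 in HIF-2α knockdown, 11.15, 11.29, 11.42 and 11.29 in HIF-1α knockdown, and 11.49, 11.14, 11.65 and 11.15 in wild type. HIF-2α and HIF-1α knockdown did not overlap, while wild type overlapped both. The log2 difference between the knockdowns was 0.40 (SE 0.13, 95% interval 0.12 to 0.68; 1.32-fold) with a limma adjusted p of 0.14, and quantile normalization brought that p to 0.0205, within a range of 0.0205 to 0.775 over 24 settings. Against wild type, HIF-2α knockdown differed by 0.33 (SE 0.13, limma adjusted p = 0.31), and HIF-1α knockdown by -0.07 (SE 0.13, limma adjusted p = 0.871).

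SC5D, the sterol desaturase that acts late in the pathway and also uses oxygen, had 3 of its 4 wild type arrays below every knockdown array. It read 11.24, 11.63, 11.03 and 11.12 in HIF-2α knockdown, 11.15, 11.36, 11.39 and 11.16 in HIF-1α knockdown, and 10.94, 10.75, 11.26 and 10.47 in wild type. Wild type replicate 3 lay inside both knockdown groups. The log2 difference was 0.40 for HIF-2α knockdown (SE 0.16, limma adjusted p = 0.31) and 0.41 for HIF-1α knockdown (SE 0.16, limma adjusted p = 0.254), each from the same wild type arrays. EBP, the sterol isomerase upstream of SC5D, had 9.68, 9.88, 10.09 and 9.95 in HIF-2α knockdown, 9.67, 9.60, 9.75 and 9.42 in HIF-1α knockdown, and 9.70, 9.51, 10.37 and 9.95 in wild type. Its wild type arrays alone spread over more than either difference between groups that involved HIF-1α knockdown. The difference was -0.27 between HIF-1α knockdown and wild type (SE 0.15, limma adjusted p = 0.495) and 0.29 between the knockdowns (SE 0.15, limma adjusted p = 0.457).

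The remaining genes of this stretch overlapped in all comparisons. SQLE, squalene epoxidase, which introduces the first oxygen and is a rate-limiting step, averaged 11.69 ± 0.11 in HIF-2α knockdown, 11.66 ± 0.09 in HIF-1α knockdown and 11.58 ± 0.21 in wild type (SD, n = 4 each). LSS, lanosterol synthase, which closes the rings, averaged 10.16 ± 0.05, 10.13 ± 0.19 and 10.11 ± 0.19 in HIF-2α knockdown, HIF-1α knockdown and wild type (SD, n = 4 each). The means of both genes lay closer together than the wild type SD. TM7SF2, a sterol reductase, and NSDHL, the dehydrogenase that follows MSMO1, had log2 differences between -0.07 and 0.13. DHCR7, the reductase that finishes cholesterol by one of its routes, had differences of -0.11 for HIF-2α knockdown and 0.06 for HIF-1α knockdown from wild type, and -0.17 between the knockdowns (limma adjusted p from 0.650 to 0.881).

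Among the 6 genes of sterol sensing and control, INSIG2, an anchor that retains SCAP with SREBP in the endoplasmic reticulum, differed most. It had 9.46, 9.85, 9.55 and 9.49 in HIF-2α knockdown, 9.49, 9.91, 10.03 and 10.11 in HIF-1α knockdown, and 9.76, 9.76, 10.36 and 10.00 in wild type. Of the HIF-2α knockdown arrays 3 lay below every wild type array, and replicate 2 lay within wild type. The log2 difference was -0.38 for HIF-2α knockdown from wild type (SE 0.15, 95% interval -0.71 to -0.06, limma adjusted p = 0.315) and -0.30 from HIF-1α knockdown (SE 0.15, limma adjusted p = 0.44). HIF-1α knockdown itself differed from wild type by -0.09 (SE 0.15, limma adjusted p = 0.871).

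STARD4, a carrier that moves sterol between membranes, had 9.19, 9.32, 9.22 and 9.08 in HIF-2α knockdown, 9.08, 9.16, 9.15 and 9.15 in HIF-1α knockdown, and 8.93, 8.80, 9.39 and 8.96 in wild type. Wild type replicate 3 was the highest of all 12 arrays and the other 3 wild type arrays the lowest. With all arrays the difference of HIF-2α knockdown from wild type was 0.18 (SE 0.10, limma adjusted p = 0.524), and without wild type replicate 3 its adjusted p was 0.0424, the lowest of 24 settings that reached up to 0.962. INSIG1, the SREBP-induced partner of INSIG2, lay between 6.81 and 7.05, below the median of every array, so low signal limits what its values can show. SREBF2, the factor mainly tied to sterol genes, averaged 9.39 ± 0.13 in HIF-2α knockdown, 9.30 ± 0.14 in HIF-1α knockdown and 9.34 ± 0.16 in wild type (SD, n = 4 each). SREBF1, mainly tied to fatty acid genes, averaged 8.21 ± 0.20, 8.25 ± 0.07 and 8.29 ± 0.13 in HIF-2α knockdown, HIF-1α knockdown and wild type (SD, n = 4 each). For both factors, and for SCAP, every log2 difference lay between -0.08 and 0.09.

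The fatty acid genes include ACSS2, which makes acetyl-CoA from acetate, the second member to stand above wild type in HIF-1α knockdown. Its log2 values were 10.36, 10.19, 10.32 and 10.16 in HIF-1α knockdown, against 9.99, 9.80, 10.10 and 9.82 in wild type. The groups did not overlap. The log2 difference was 0.33 (SE 0.08, 95% interval 0.16 to 0.50), or 1.25-fold, with a limma adjusted p of 0.0729, and leaving out wild type replicate 3 brought that p to 0.0257, the lowest of 24 settings that reached up to 0.292. HIF-2α knockdown had 9.97, 9.98, 10.18 and 9.91, near wild type, with a difference of 0.08 (SE 0.08, limma adjusted p = 0.776). Between the knockdowns the difference was -0.25 (SE 0.08, limma adjusted p = 0.14), with HIF-2α knockdown replicate 3 reaching into the HIF-1α knockdown range.

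ACACB, the acetyl-CoA carboxylase at the mitochondrial surface, had 8.08, 8.01, 8.06 and 8.19 in HIF-2α knockdown, against 7.99, 7.76, 7.997 and 7.93 in HIF-1α knockdown. The nearest arrays of the groups almost touched, and the log2 difference was 0.17 (SE 0.08, limma adjusted p = 0.366). ACACB and MSMO1 were the 2 of 27 members without overlap between the knockdowns, where 9.08% of all genes had none, and between HIF-2α knockdown and wild type 0 of 27 members had none, against 5.31% of genes. Wild type values of ACACB were 7.84, 7.99, 7.92 and 8.18, across both knockdowns. ME1, malic enzyme, which supplies NADPH for fatty acid synthesis, lay below the median of every array, with 6.50, 6.47, 6.48 and 6.56 in HIF-2α knockdown, 6.54, 6.50, 6.45 and 6.49 in HIF-1α knockdown, and 6.64, 6.76, 6.49 and 6.54 in wild type. Its 2 highest values were on the wild type arrays with a raised floor, and its difference was -0.11 for each knockdown (SE 0.06, limma adjusted p = 0.52 for HIF-2α and 0.469 for HIF-1α knockdown).

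The main enzymes of fatty acid synthesis overlapped in every comparison. FASN, fatty acid synthase, averaged 10.11 ± 0.16 in HIF-2α knockdown, 10.18 ± 0.24 in HIF-1α knockdown and 10.29 ± 0.32 in wild type (SD, n = 4 each). ACLY, which makes cytosolic acetyl-CoA from citrate, averaged 10.75 ± 0.09, 10.86 ± 0.09 and 10.80 ± 0.09 in HIF-2α knockdown, HIF-1α knockdown and wild type (SD, n = 4 each). ACACA, the cytosolic acetyl-CoA carboxylase, averaged 9.65 ± 0.13, 9.57 ± 0.06 and 9.58 ± 0.03 in those groups (SD, n = 4 each). The differences of ACLY and ACACA stayed between -0.11 and 0.08, with intervals narrower than those of most members.

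The members spread more widely in wild type than in either knockdown, and this spread bears on both comparisons with wild type. The median SD of the 27 members was 0.13 in HIF-2α knockdown, 0.11 in HIF-1α knockdown and 0.21 in wild type, where the medians over all genes were 0.10, 0.07 and 0.11. The widest SD was in wild type for 19 members, in HIF-2α knockdown for 6 and in HIF-1α knockdown for 2. Among all genes wild type was widest for 50.5%. For 24 of 27 members the range of the wild type arrays exceeded every difference between group means, as it did for 84.5% of all genes.

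**Figure D3:**
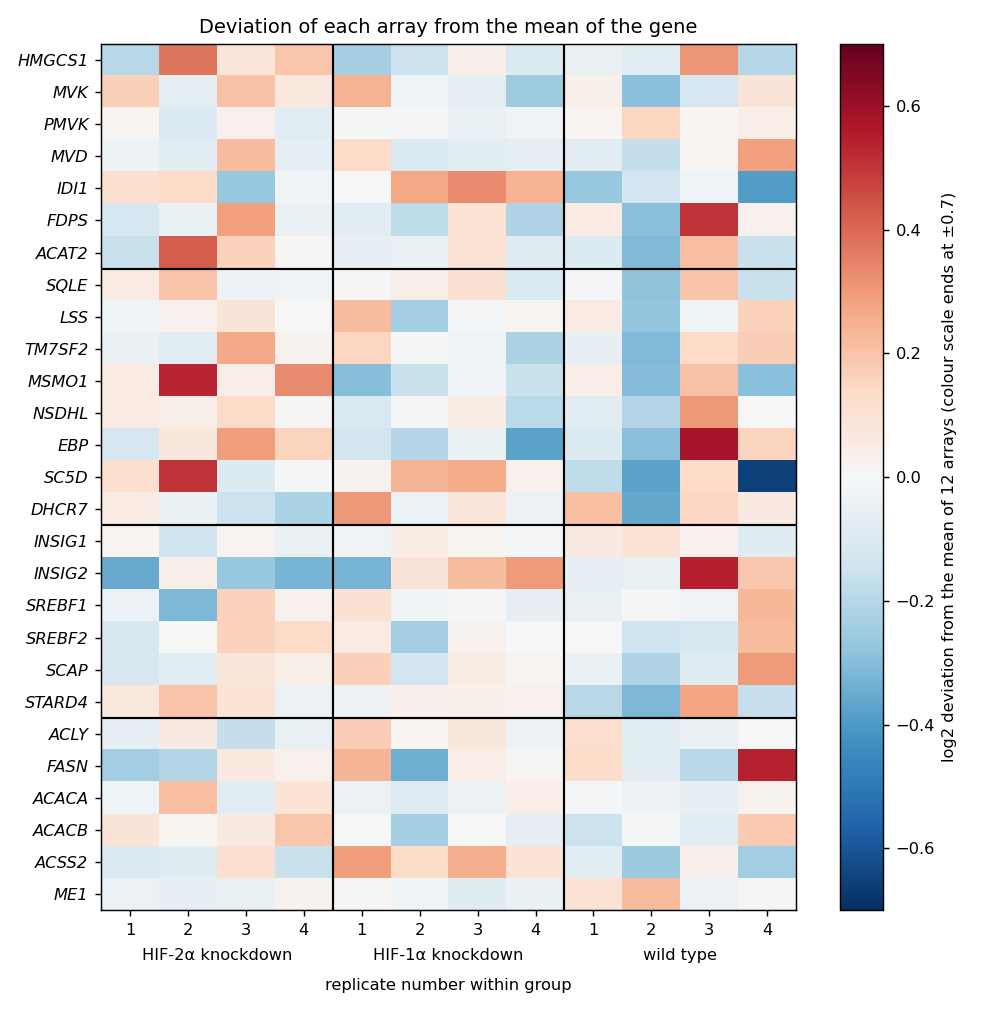
Deviation of each member (rows, grouped by role) from its own mean over 12 arrays, in log2 units, with the arrays as columns in the order HIF-2α knockdown, HIF-1α knockdown, wild type. Wild type replicate 2 is below the mean for 24 of 27 members, where 46.7% of all genes are above it. Wild type replicate 3 is above the mean for 16 members (46.4% of all genes) and replicate 4 for 18 (44.5%). HIF-1α knockdown replicate 3 is above it for 17 (46.3%) and HIF-2α knockdown replicate 3 for 19 (51.5%).

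On single arrays of every group many members lay on one side of their means. Replicate 3 of HIF-2α knockdown had 19 of 27 members (70.4%) above their own mean over the 12 arrays, against 51.5% of all genes. Replicate 2 of HIF-1α knockdown had 8 of 27 (29.6%), against 56.1% of all genes. In wild type replicate 2 only 3 of 27 members (11.1%) were above their own mean, against 46.7% of all genes, and the 8 measured genes from squalene to cholesterol averaged -0.30 from their means, none above. The same 8 genes averaged 0.16 in HIF-2α knockdown replicate 2 and 0.21 in wild type replicate 3, where 7 of 8 were above. Wild type replicate 2 had a raised floor and the narrowest interquartile range of the 12 arrays, 1.70, and its brightest 25% of genes had a median deviation of -0.15. After quantile normalization, which gives all arrays one distribution, 13 of 27 members (48.1%) were above their mean in wild type replicate 2, against 53.6% of all genes. The 8 late sterol genes averaged -0.11 there, 0.05 in wild type replicate 3 and -0.04 in HIF-2α knockdown replicate 2. The count stayed at 19 of 27 in HIF-2α knockdown replicate 3, against 41.9% of all genes. It stayed at 8 of 27 in HIF-1α knockdown replicate 2, against 58.4%. Counts on other arrays moved. In HIF-2α knockdown replicate 2 the count went from 15 to 7 of 27, against 45.5% of all genes after normalization. In wild type replicate 1 it went from 11 to 19 of 27, against 54.7%. In HIF-1α knockdown replicate 3 the count went from 17 to 6 of 27, against 46.2% of all genes after normalization.

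Genes of the pathway outside the list of members were read from the same fit. Of 23 further SREBP targets and lipid enzymes listed, 17 were measured, and this list too was chosen with earlier results known. In HIF-1α knockdown against wild type 1 was called higher and none lower, where 0.962% of all genes were called, and their median log2 difference was 0.15, where that of the members was -0.02. At an unadjusted p below 0.05, 8 of the 17 were higher and none lower, against 10.3% of all genes higher. Without the 3 arrays with a raised floor that count was 3 and the median 0.09. In HIF-2α knockdown against wild type none was called, 2 were higher at an unadjusted p below 0.05, near the 8.16% of all genes, and the median was 0.02. Between HIF-2α and HIF-1α knockdown 2 were called lower and none higher, where 2.77% of all genes were called, with a median of -0.02. At an unadjusted p below 0.05, 7 of the 17 were lower and 1 higher there, against 8.39% of all genes lower and 5.19% higher.

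The called genes were FADS2 and ELOVL6. FADS2, the desaturase of polyunsaturated fatty acid synthesis, had 9.10, 8.85, 9.10 and 9.12 in HIF-2α knockdown, 10.42, 10.07, 10.25 and 10.06 in HIF-1α knockdown, and 8.96, 9.06, 9.43 and 9.58 in wild type. HIF-1α knockdown lay above every array of the other groups. It rose by a log2 difference of 0.94 from wild type (SE 0.13, limma adjusted p = 0.00413; called in 21 of 24 alternative settings, with an adjusted p of up to 0.0862), and HIF-2α knockdown was lower than HIF-1α knockdown by a log2 difference of -1.16 (SE 0.13, limma adjusted p = 0.00032). ELOVL6, which elongates the product of fatty acid synthase, had 9.03, 8.93, 8.83 and 8.67 in HIF-2α knockdown, against 9.15, 9.47, 9.66 and 9.52 in HIF-1α knockdown, and 8.75, 8.74, 9.40 and 8.92 in wild type. It was lower in HIF-2α than in HIF-1α knockdown (log2 difference -0.58, SE 0.14, limma adjusted p = 0.0437), a call made in 12 of 24 alternative settings. Next in p in HIF-1α knockdown against wild type were PNPLA3, a lipid droplet hydrolase, with a log2 difference of 0.42 (SE 0.11, limma adjusted p = 0.0848), ELOVL6 with 0.50 (SE 0.14, limma adjusted p = 0.117) and MID1IP1, an activator of acetyl-CoA carboxylase, with 0.24 (SE 0.07, limma adjusted p = 0.135).

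**Figure D4:**
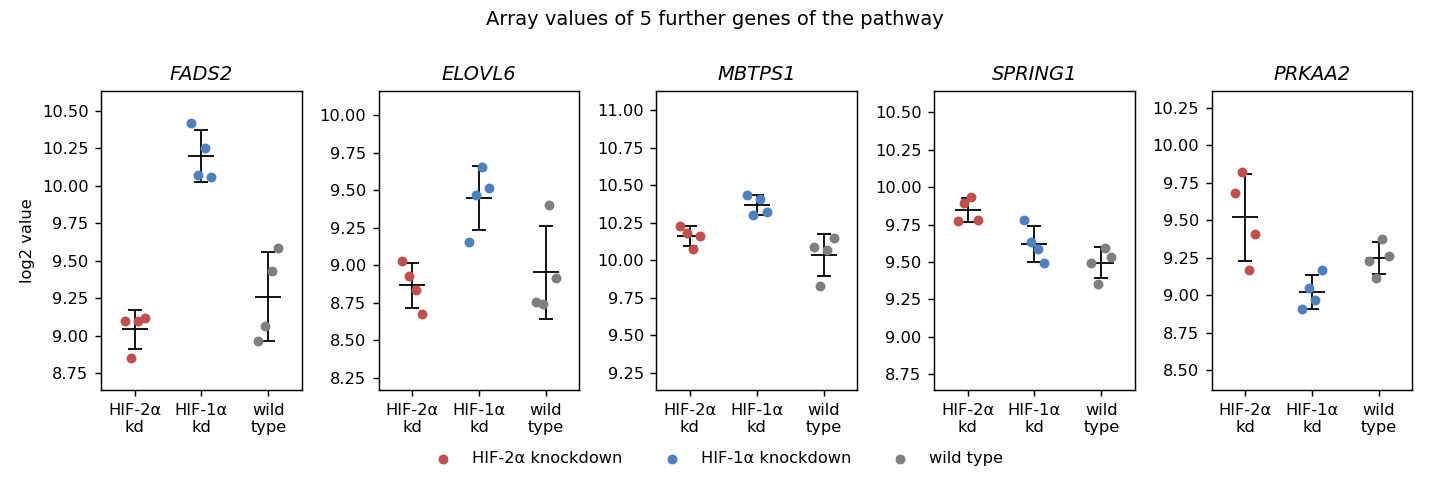
Log2 values of 5 genes of the wider pathway that were called in a comparison, 1 panel per gene with its own axis, each point 1 array, horizontal bars for the mean and vertical bars for the SD of 4 arrays. FADS2 in HIF-1α knockdown, from 10.06 to 10.42, lies above all arrays of the other groups.

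Of 31 listed regulators of the pathway, 27 were measured and 1 was called higher in each comparison, with none lower. Of all genes 0.962% were called for HIF-1α knockdown and 0.788% for HIF-2α knockdown against wild type, and 2.77% between the knockdowns, so 1 of 27 says nothing particular about the regulators. MBTPS1, the protease that makes the first cut in SREBP, had 10.43, 10.30, 10.41 and 10.32 in HIF-1α knockdown, against 10.09, 9.83, 10.07 and 10.15 in wild type, without overlap. The log2 difference was 0.33 (SE 0.07, limma adjusted p = 0.0392), and the adjusted p was 0.0893 after quantile normalization and 0.188 without the 3 arrays with a raised floor, in a range of 0.0184 to 0.188 over 24 settings. SPRING1, a cofactor of that protease, had 9.77, 9.90, 9.93 and 9.78 in HIF-2α knockdown, against 9.49, 9.35, 9.60 and 9.54 in wild type. Its log2 difference was 0.35 (SE 0.07, limma adjusted p = 0.0404), a call made in 6 of 24 alternative settings. PRKAA2, a catalytic subunit of the kinase AMPK, which inhibits acetyl-CoA carboxylase, had 9.68, 9.82, 9.17 and 9.41 in HIF-2α knockdown, against 8.91, 9.05, 8.97 and 9.17 in HIF-1α knockdown. Its lowest HIF-2α knockdown array and highest HIF-1α knockdown array nearly met, and the log2 difference of 0.50 (SE 0.12, limma adjusted p = 0.0378) was called in 9 of 24 settings.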

How the data were processed

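Values were used as the authors deposited them: 1 table of log2 values for 32321 probe sets on 12 Affymetrix arrays. Base 2 was taken from the range of the values, 5.93 to 15.1. The sources used here do not give the background correction, summarization or normalization. The table holds no counts or detection calls, so precision rests on 4 arrays a group.

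Gene names came from GEO's platform annotation, updated by Entrez identifier against RefSeq (19128 of the 19158 probe sets with 1 symbol matched by identifier, 4 by symbol, 26 kept); 1388 named several genes and 11775 none. Where a gene had several probe sets the brightest was used. Each measured member had 1 such probe set. Levels of different genes were not tested against each other.

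Tests used limma 3.58.1 under R 4.3.3 (lmFit on group means over all 12 arrays, then eBayes). P-values were adjusted by Benjamini-Hochberg over 18404 genes and called below 0.05. The p-values measure the spread between spheroid experiments of one cell line. The script was tested on simulated data. Single genes were also given an exact permutation test. Per-array values are given for the 6 members with the smallest p in each comparison, and called genes are named from the other lists. The next in p are named only for the further SREBP targets and lipid enzymes in HIF-1α knockdown against wild type. The members and lists were chosen with earlier results of these data known. Promoter windows came from RefSeq. Alternatives were other scalings, other fits, and arrays left out.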

Additional observations from a re-analysis of the deposited data

Results flagged for a closer look

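Each of the 27 members was examined in each group of 4 arrays for an array that stands far from the other 3. Of 81 such groups 4 had one, and chance gives about 1 in 20. MVD in HIF-2α knockdown read 9.45 in replicate 3, where the next highest array read 9.19. In HIF-1α knockdown MVD read 9.36 in replicate 1, next to 9.16. STARD4 was lowest in replicate 1 of HIF-1α knockdown, at 9.08, with the nearest array at 9.15. SREBF1 was highest in wild type replicate 4, at 8.48, with the nearest array at 8.24. None of these genes was called in a comparison.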

How the results depend on the processing

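The fit was repeated under 24 settings, 12 of which leave out 1 array and 3 of which were added after seeing the data (quantile normalization with replicate block, the ribosomal protein mean as a covariate, and leaving out HIF-2α knockdown replicate 2 with the 3 arrays of raised floor). No called difference changed sign. The count of called members in HIF-1α knockdown against wild type, 0 as reported, was 1 (IDI1) after quantile normalization, with only the 8 arrays compared, with array weights and after quantile normalization with replicate block, and 0 to 2 with 1 array left out (2, IDI1 and ACSS2, without wild type replicate 3; 1, IDI1, without HIF-2α knockdown replicate 3). In HIF-2α knockdown against wild type it was 1 with the ribosomal covariate (MSMO1), 1 after quantile normalization with replicate block (INSIG2), and 0 to 1 with 1 array left out (STARD4 without wild type replicate 3). Between HIF-2α and HIF-1α knockdown it was 1 after quantile normalization (MSMO1), 2 after quantile normalization with replicate block (MSMO1 and DHCR7), and 0 with each array left out. Over all genes the counts moved more. In HIF-1α knockdown against wild type, 177 as reported, they were 85 with arrays centred on the median, 22 without the raised-floor arrays and 21 without HIF-2α knockdown replicate 2 as well, 396 with only the 8 arrays compared, 288 with a trended and robust prior, 605 with array weights, 464 after quantile normalization with replicate block, 22 with the ribosomal covariate and 50 to 483 with 1 array left out. In HIF-2α knockdown against wild type, 145 as reported, the counts were 404 after quantile normalization, 72 centred, 37 without the raised-floor arrays, 20 without HIF-2α knockdown replicate 2 as well, 64 with only the 8 arrays compared, 285 with a trended and robust prior, 625 after quantile normalization with replicate block and 61 to 219 with 1 array left out. Between the knockdowns, 509 as reported, the counts were 888 after quantile normalization, 337 centred, 259 without the raised-floor arrays, 128 without HIF-2α knockdown replicate 2 as well, 980 with array weights, 1221 after quantile normalization with replicate block, 254 with the ribosomal covariate and 211 to 618 with 1 array left out. The causes were not tested. Low signal limits INSIG1 and ME1.

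The sources used here do not state whether replicate numbers pair the arrays. Of 12 same-number pairs of arrays, 5 had deviations that correlated above 0.1, over a range of -0.17 to 0.64. Pairs of different number ranged from -0.60 to 0.57. These values do not settle whether the numbers pair the arrays. With the replicate block alone the count of called members was 1, ACSS2, in HIF-1α knockdown against wild type (adjusted p = 0.0264) and 1 between the knockdowns (adjusted p = 0.0455). Over all genes the block gave 202 calls in HIF-2α knockdown against wild type, 234 in HIF-1α knockdown against wild type and 562 between the knockdowns.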
